A study of Homo sapiens with 6 samples.

Results

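The genes described here are 10 components of the canonical Wnt pathway, chosen by name: the co-receptor gene LRP6, the receptor-degrading ligase genes RNF43 and ZNRF3, CTNNB1 (beta-catenin), APC, the DNA-binding partners LEF1, TCF7 and TCF7L2, and the feedback genes AXIN2 and NKD1. All 10 were present among the 16000 genes of the deposited table. RNA had been sequenced after poly(A) selection from LNCaP, an established androgen-sensitive human prostate cancer line derived from a lymph node metastasis. The cells were sorted with the ALDEFLUOR assay, in which active aldehyde dehydrogenase (ALDH) makes a cell fluoresce, into the brightest 10% (ALDH high, 3 samples) and the dimmest 10% (ALDH low, 3 samples). Both populations were grown in RPMI medium with 10% fetal bovine serum, no other agent is named in the labels, and no unsorted sample was analysed here. All samples come from 1 line, and nothing in the labels tells whether samples with the same label were sorted separately; the spread behind each p-value may therefore be technical.

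In the canonical pathway a secreted Wnt protein binds a Frizzled receptor together with LRP5 or LRP6, which halts the complex of AXIN, APC and the kinases GSK3 and CK1 that otherwise marks beta-catenin for destruction. Beta-catenin then accumulates, enters the nucleus and binds the TCF and LEF factors, which switch on targets that include AXIN2, NKD1, RNF43, ZNRF3, LEF1 and TCF7 themselves. Transcripts of such targets are widely used as a readout of the signal, and several of the targets dampen it. In prostate cancer the pathway has been studied mainly in advanced, androgen-independent disease.

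The libraries held 23817310 to 30617873 recovered reads. They did not separate by label: on the first principal component of the 500 most variable genes, ALDH high 1, ALDH high 3 and ALDH low 2 scored 20.8, 21.2 and 19.1, while ALDH low 1, ALDH low 3 and ALDH high 2 scored −20.7, −23.1 and −17.2. Reads of mitochondrial genes followed the same arrangement, at 4.90%, 4.90% and 4.55% of gene reads in the first 3 of these libraries and 2.01%, 2.996% and 2.89% in the others. Transcripts with at least 10 kb of exon followed another one: the 1389 such genes that averaged 100 or more normalized reads had a median log2 deviation from their own means of −0.33 in ALDH low 3, of 0.25 in ALDH high 2 and of −0.02 to 0.07 in the other 4 libraries. Over all genes with that average, ALDH high 2 correlated best with ALDH low 1 (r = 0.980) and ALDH low 2 with ALDH high 1 (0.996). ALDH low 3 did not follow the component there. It correlated best with ALDH high 1 and ALDH high 3 (0.969 each), above ALDH low 1 (0.964) and ALDH high 2 (0.961). All 9 luminal prostate markers looked up were in the table, with summed levels of 194348 to 229517 normalized reads per library. Of the markers of other cell types, 3 of 6 basal (KRT14, DST and ITGA6, summing to 2794 to 4672 normalized reads per library), 3 of 6 endothelial (VWF, CLDN5 and EGFL7, 1819 to 2849), 1 of 8 fibroblast (PDGFRB, 59.8 to 84.6) and 1 of 6 leukocyte markers (CD68, 16.4 to 32.0) were matched.

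Levels of the 10 genes spanned a wide range. Levels between genes are compared as normalized reads per kilobase of annotated exon, averaged over the 6 libraries. CTNNB1 stood far above the rest at 890 ± 97.6 (SD over 6 libraries), followed by LRP6 at 100.5 ± 26.9 and ZNRF3 at 73.1 ± 10.6. TCF7L2 (47.1 ± 8.11), LEF1 (47.1 ± 18.6), APC (38.5 ± 14.4), RNF43 (32.7 ± 2.91) and AXIN2 (30.3 ± 3.97) came next, and neighbours among these 5 differed by less than the larger of their 2 SDs. NKD1 followed at 13.4 ± 4.32, and TCF7 was lowest at 2.52 ± 1.58. Exons of other genes on the same strand cover 59.6% of the exon bases of RNF43 and 25.2% of those of AXIN2, so the places of both are uncertain. The exon length joins all annotated transcripts of a gene, so a gene whose joined length exceeds that of the transcript in use is placed too low. NKD1, with 17.4 kb, may be such a gene.

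**Figure D1:**
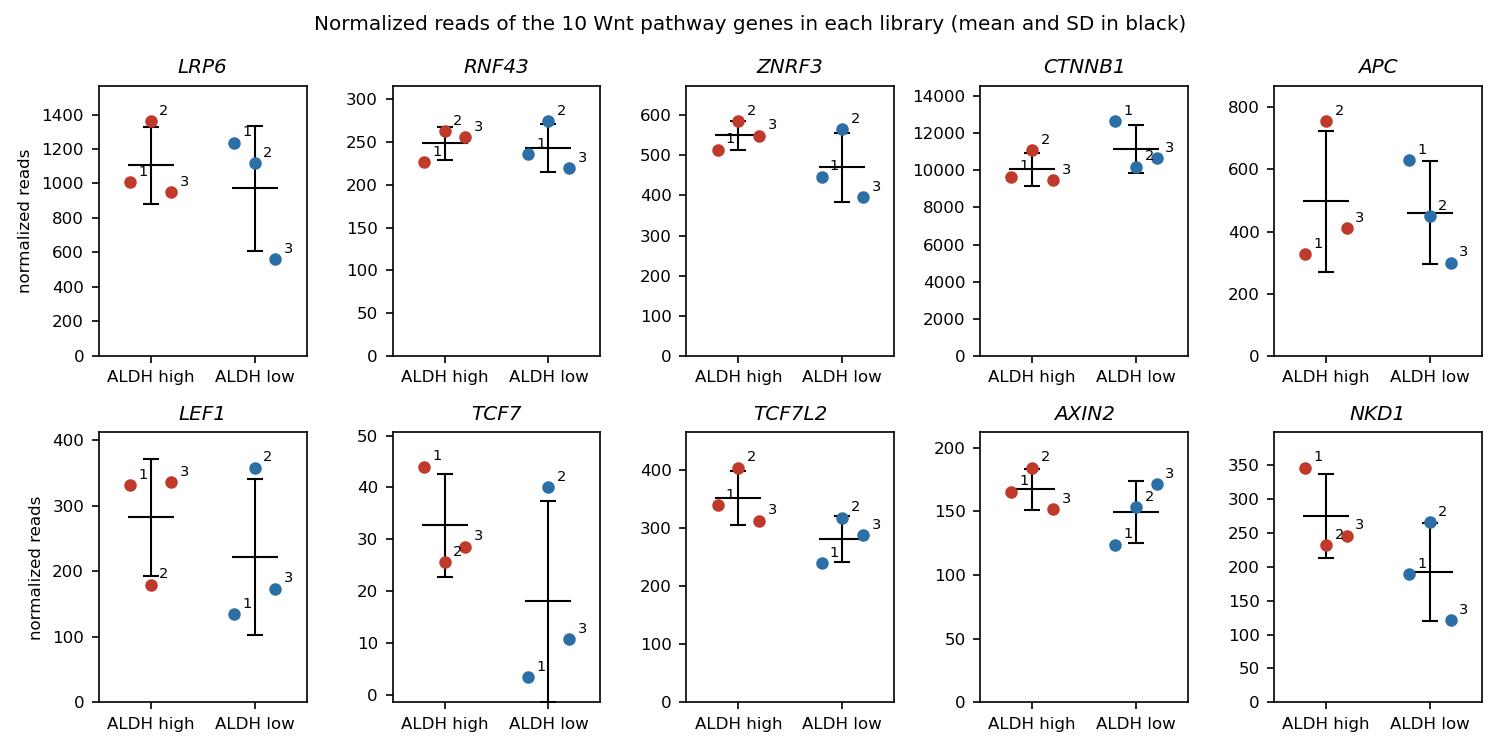
Normalized reads (vertical axis, linear) of each of the 10 genes in ALDH high (red) and ALDH low (blue), with 1 numbered point per library and the group mean and SD in black. The groups overlap in every panel; LEF1 is lowest in ALDH low 1, ALDH low 3 and ALDH high 2, and APC and LRP6 are lowest in ALDH low 3.

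At the cell surface, none of the 3 genes separated the groups. LRP6, the co-receptor that passes the Wnt signal to AXIN (chromosome 12, 12116025 to 12267012, GRCh38), had 1008, 1361 and 949 normalized reads in libraries 1, 2 and 3 of ALDH high and 1237, 1120 and 560 in those of ALDH low. ALDH low 3 was well below all other libraries, and ALDH high 2 was the highest. The log2 difference, ALDH high minus ALDH low on the log2(normalized reads + 1) scale, was 0.25 with a 95% interval of −0.37 to 0.87, and −0.11 without ALDH low 3. LRP6 has 10.3 kb of exon and shared the low value in ALDH low 3 and the high one in ALDH high 2 with other long transcripts; the part of transcript length in it was not tested for the gene itself, and once a trend with exon length and GC content was removed in each library the difference was 0.17. In bulk RNA, fewer cells with a transcript and less of it per cell cannot be told apart.

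RNF43 and ZNRF3 are paired transmembrane ubiquitin ligases that remove Frizzled receptors from the surface and are themselves Wnt targets. RNF43 (chromosome 17, 58352500 to 58417595) was the steadiest of the 10 genes, with 226, 263 and 256 normalized reads in libraries 1, 2 and 3 of ALDH high and 236, 274 and 220 in those of ALDH low, a 1.25-fold range. Its log2 difference was 0.03 (95% interval −0.39 to 0.46), and it was −0.0086 without ALDH high 2, −0.037 without ALDH low 3 and −0.086 with the length and GC trend removed. Exons of other genes cover 59.6% of its exon bases on the same strand and 20.3% on the opposite strand, so its count is uncertain. ZNRF3 (chromosome 22, 28883592 to 29057487) had 514, 585 and 549 across ALDH high and 447, 565 and 396 across ALDH low, in the same order. ALDH low 2 lay within the ALDH high values and the other ALDH low libraries below them, and the log2 difference was 0.24 (−0.16 to 0.64).

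The ratio of ZNRF3 to RNF43 per kilobase was 2.45, 2.40 and 2.31 across ALDH high and 2.04, 2.22 and 1.94 across ALDH low. The groups did not overlap in this ratio, with a two-sided exact permutation p of 0.1, the smallest that 3 samples against 3 allow, and an adjusted p of 0.6 over the 10 ratios and shares computed. These ratios were chosen after the members' values were seen, and this one carries the uncertainty of the RNF43 count. The ratio of LRP6 to LRP5, its paralogue, averaged 0.202 ± 0.0356 among ALDH high libraries and 0.196 ± 0.0697 among ALDH low ones (SD, n = 3 each), with an exact permutation p of 1.

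CTNNB1 encodes beta-catenin, which also links cadherins to the cytoskeleton at cell junctions, and it is regulated chiefly through protein stability. Its transcript (chromosome 3, 41194741 to 41260096) had 9653, 11076 and 9460 normalized reads in libraries 1, 2 and 3 of ALDH high and 12645, 10196 and 10654 in those of ALDH low. It was the only one of the 10 genes with a mean below that of ALDH low, at 10063 ± 883 against 11165 ± 1302 (SD, n = 3 each). The log2 difference was −0.15 (95% interval −0.49 to 0.20), and a negative sign was kept in each of the 16 alternative analyses, which gave −0.29 to −0.05. CTNNB1 has 11.9 kb of exon, and the value of −0.29 came with the length and GC trend removed. The part of length in its values was not tested. The 2 lowest libraries were ALDH high 3 and ALDH high 1, followed by ALDH low 2. These are the libraries with positive scores on the first principal component, an arrangement that crosses the labels. The part of the component in the CTNNB1 values was not tested. The 16 alternatives reuse the same libraries, so they are not separate tests of the sign.

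APC is the scaffold of the destruction complex and a tumour suppressor of the intestine. It lies on chromosome 5 (112707498 to 112846239) and had 328, 755 and 410 normalized reads in libraries 1, 2 and 3 of ALDH high and 631, 451 and 299.9 in those of ALDH low. The libraries of 1 group thus differed by more than 2-fold, with ALDH high 2 and ALDH low 1 at the top and ALDH low 3 and ALDH high 1 at the bottom. The log2 difference was 0.08 (95% interval −0.65 to 0.82), −0.26 without ALDH high 2, −0.19 without ALDH low 3 and −0.25 without both samples numbered 2. APC has 12.4 kb of exon, and its highest and lowest libraries were those in which long transcripts stood highest and lowest; the part of length in its values was not tested, and with the length and GC trend removed the difference was 0.00011. APC per kilobase was 3.26%, 6.54% and 4.16% of CTNNB1 across ALDH high and 4.78%, 4.24% and 2.70% across ALDH low (exact permutation p = 0.7, adjusted p = 1).

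**Figure D2:**
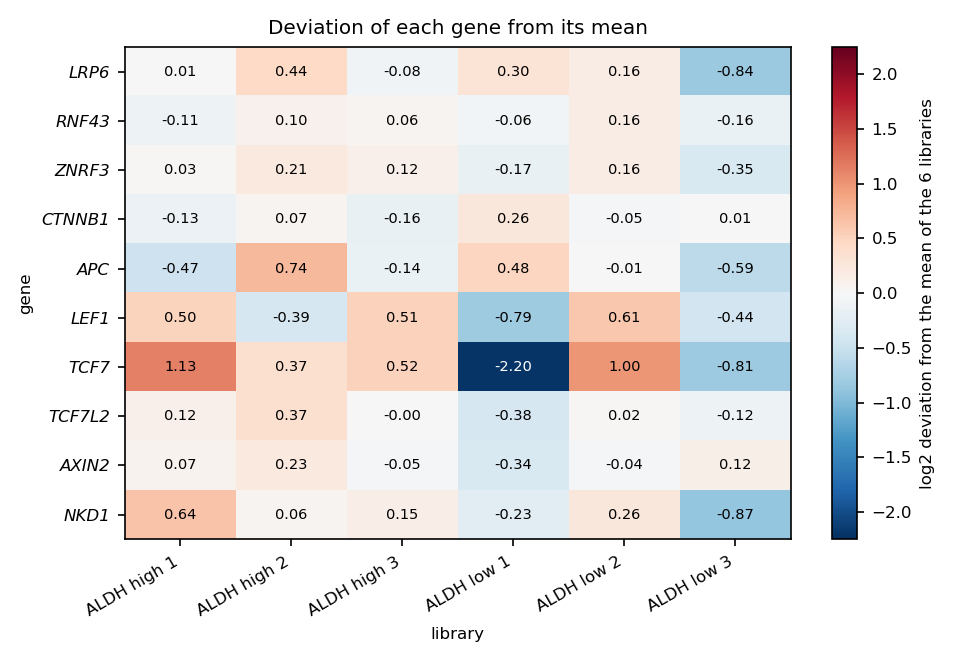
Heat map of the log2 deviation of each gene (rows) in each library (columns) from the mean of its 6 libraries on the log2(normalized reads + 1) scale; red is above and blue below the mean. LEF1 is about 0.5 or more above its mean in ALDH high 1, ALDH high 3 and ALDH low 2 and below it in the others, and TCF7 has the lowest entry, −2.20, in ALDH low 1.

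The TCF and LEF factors bind DNA through a shared HMG box and recruit either beta-catenin or the Groucho repressors. They recognise a sequence with the core CTTTG. RefSeq promoter windows (GRCh38.p14) were matched for 6 of the 10 genes, with 11 windows in all, and the 250 bases before each start were searched for CTTTG and for its extension CTTTGA on both strands; each match of the longer motif also holds the shorter one. CTTTG was found in 6 of the 11 windows, where 42.1% of all 35116 windows of that length hold it. CTTTGA was found in 0 of the 11, where 11.2% of all windows hold it. Such a match describes the letters of the window and is not a binding site. The stretches below are examples from the TCF and LEF family, which the next paragraphs compare. The capitals mark the core as it reads on the printed strand, 5′ to 3′. They cover the match before the RefSeq start of LEF1 (chr4:108166408-108166437, minus strand), which lies inside an annotated exon of LEF1 transcripts that start further upstream in GENCODE, as do all 250 bases of that window, the window before the second start of TCF7 (chr5:134123368-134123617, plus strand) and that before the second start of TCF7L2 (chr10:113126383-113126632, plus strand).
LEF1: gccttttccctcCAAAGaaacttggaggat
TCF7: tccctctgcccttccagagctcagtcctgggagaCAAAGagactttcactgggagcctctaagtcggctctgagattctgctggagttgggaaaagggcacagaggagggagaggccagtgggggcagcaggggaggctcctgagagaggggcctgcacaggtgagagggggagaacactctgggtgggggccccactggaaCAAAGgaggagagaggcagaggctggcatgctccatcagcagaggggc
TCF7L2: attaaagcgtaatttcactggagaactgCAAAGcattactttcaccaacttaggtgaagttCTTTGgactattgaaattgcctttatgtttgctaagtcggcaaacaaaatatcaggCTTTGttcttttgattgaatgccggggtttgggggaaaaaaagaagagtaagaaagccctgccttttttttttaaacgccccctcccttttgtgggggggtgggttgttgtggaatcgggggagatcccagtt
The window of TCF7 holds 2 matches, that of TCF7L2 holds 3, the third window of TCF7L2 holds 1, and the first windows of both genes hold 0. The remaining windows are 2 of RNF43 with 1 match each and, with 0 matches, 2 of APC and 1 of CTNNB1.

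LEF1, a lymphoid and stem-cell factor of the family (chromosome 4, 108047545 to 108168956), had 332, 180 and 336 normalized reads in libraries 1, 2 and 3 of ALDH high and 135, 358 and 174 in those of ALDH low. Libraries 1 and 3 of ALDH high and ALDH low 2 lay close together, and ALDH high 1, the lowest of them, was 1.85-fold above ALDH high 2, the highest of the remaining libraries. That is the arrangement of the first principal component and of the mitochondrial share, which crosses the labels. Among the 10 genes, TCF7 and NKD1 split the libraries in the same way, and CTNNB1 did so in reverse. The part of the component or of the mitochondrial share in the values of these genes was not tested. The group means of LEF1 were 283 ± 89.1 and 222 ± 119 (SD, n = 3 each), with a log2 difference of 0.42 (95% interval −0.39 to 1.23). It was 0.12 without ALDH low 1, 0.82 without ALDH low 2 and 1.12 without both samples numbered 2. That last choice was made with these values known and removes the library of each label that lay with the other label, so the larger value follows from the choice; 15.3% of all genes had an unadjusted p under 0.05 among those 4 libraries.

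TCF7, best known from T cells, was scarce in all libraries (chromosome 5, 134114711 to 134151865). It had 44.0, 25.5 and 28.6 normalized reads in libraries 1, 2 and 3 of ALDH high and 3.47, 40.0 and 10.7 in those of ALDH low. ALDH low 2 again sat among the ALDH high libraries, and the value of ALDH low 1 rests on 4 reads, with an exact 95% Poisson interval of 1.09 to 10.2 reads that covers counting error only. ALDH high 1 had 42 reads (30.3 to 56.8). The log2 difference of 1.35 was the largest of the 10 genes and had the widest interval, −0.19 to 2.89 (limma unadjusted p = 0.0803). It was 0.80 with a pseudocount of 10, 0.86 with edgeR on the recovered reads, 0.58 without ALDH low 1, 2.18 without ALDH low 2 and 2.33 without both samples numbered 2.

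TCF7L2, the main TCF of many epithelia (chromosome 10, 112950250 to 113167678), was steadier. It had 340, 404 and 313 normalized reads in libraries 1, 2 and 3 of ALDH high and 240, 318 and 288 in those of ALDH low. ALDH low 2, the highest of its group, passed only ALDH high 3, the lowest of the other. The log2 difference was 0.32 (95% interval −0.11 to 0.76), and it stayed above 0 in all 16 alternatives, at 0.21 to 0.41.

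Per kilobase, LEF1 and TCF7L2 together made up most of the family's transcripts, and which of them led depended on the library. LEF1 was 49.7% and 52.0% of the summed level of LEF1, TCF7, TCF7L1 and TCF7L2 in libraries 1 and 3 of ALDH high and 54.1% in ALDH low 2, with TCF7L2 at 40.5%, 38.6% and 38.2%. In ALDH low 1, ALDH low 3 and ALDH high 2, TCF7L2 was 57.1%, 55.3% and 60.6% and LEF1 40.4%, 41.8% and 33.9%. Both groups held libraries of either kind, and the LEF1 share averaged 45.2% ± 9.86 among ALDH high libraries and 45.4% ± 7.51 among ALDH low ones (SD, n = 3 each, exact permutation p = 1). The summed level was 124.7, 99.0 and 121 normalized reads per kilobase in libraries 1, 2 and 3 of ALDH high and 62.4, 124 and 77.4 in those of ALDH low (exact permutation p = 0.3, adjusted p = 0.6). TCF7L1, usually a repressor, had 34.6, 12.8 and 37.7 normalized reads across ALDH high and 5.20, 24.4 and 5.36 across ALDH low, so ALDH low 2 lay above ALDH high 2 here too. Its log2 difference was 1.41 (95% interval −0.02 to 2.85, limma unadjusted p = 0.0521 and adjusted p = 0.984).

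**Figure D3:**
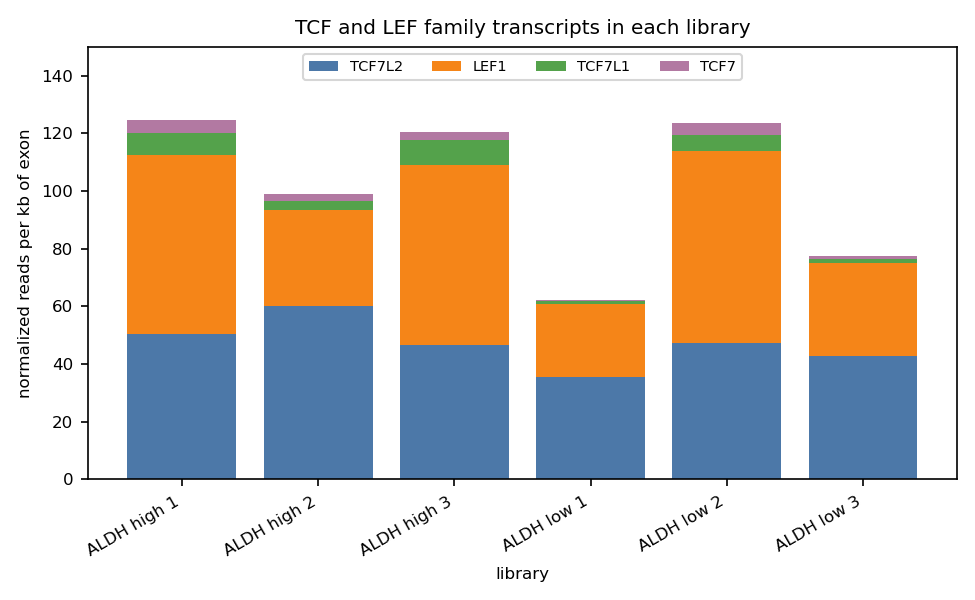
Stacked bars of the normalized reads per kilobase of exon of TCF7L2, LEF1, TCF7L1 and TCF7 in each library. The LEF1 segment is the largest in ALDH high 1, ALDH high 3 and ALDH low 2, and the TCF7L2 segment is the largest in the other 3 libraries.

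Of the feedback genes, AXIN2, a scaffold of the destruction complex and the most general target of the pathway (chromosome 17, 65528563 to 65561647), varied little. It had 165, 184 and 152 normalized reads in libraries 1, 2 and 3 of ALDH high and 124, 153 and 171 in those of ALDH low. The groups were interleaved, with ALDH high 2 highest and ALDH low 1 lowest, and the arrangement of LEF1 was not seen. The log2 difference was 0.17 (95% interval −0.32 to 0.66); leaving out ALDH low 1 gave 0.04, and it was 0.27 without ALDH low 3. Another annotated gene covers 25.2% of the exon bases of AXIN2 on the same strand, so its count is uncertain too. Per kilobase, AXIN2 was 0.178, 0.203 and 0.170 of its paralogue AXIN1 across ALDH high and 0.111, 0.173 and 0.157 across ALDH low (exact permutation p = 0.2, adjusted p = 0.6).

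NKD1 encodes an inhibitor that binds Dishevelled, the relay between receptor and destruction complex, and is a target in many tissues (chromosome 16, 50548330 to 50649249). It had 346, 232 and 246 normalized reads in libraries 1, 2 and 3 of ALDH high and 189, 266 and 121 in those of ALDH low. The highest library was ALDH high 1 and the next ALDH low 2, while the other 2 ALDH low libraries lay below all of ALDH high. The log2 difference was 0.56 (95% interval −0.09 to 1.22, limma unadjusted p = 0.0837). It was 0.27 without ALDH low 3, 0.83 without ALDH low 2, 0.32 with the length and GC trend removed and 0.94 without both samples numbered 2. NKD1 has 17.4 kb of exon and was lowest in ALDH low 3, as long transcripts were, but it was not highest in ALDH high 2. The part of length in its values was not tested.

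Taken over the 10 genes, limma called 0 between ALDH high and ALDH low, as it did among all 16000 genes (0%), and 0 had an unadjusted p under 0.05, against 2.11% of all genes. EdgeR and DESeq2 on the recovered reads also called 0 of the 10, with 0 at an unadjusted p under 0.05 in either. The adjusted p was at least 0.984 in limma and was 0.998 for each of the 10 in the authors' deposited table. The groups overlapped in all 10, where 3.67% of all genes did not overlap with ALDH high higher and 3.32% with ALDH high lower. Differences lay above 0 in 9 genes and below 0 in 1, with a median of 0.24. Of all genes 52.3% lay above 0, with a median of 0.02, and of those averaging 100 or more normalized reads 49.9%. The signs of the 10 genes are not independent. LEF1, TCF7 and NKD1 shared a library arrangement. LRP6, APC and ZNRF3 were each highest in ALDH high 2 and lowest in ALDH low 3. The 95% intervals of all 10 included 0, and those of 7 lay within a 2-fold change either way. The exceptions were LEF1, TCF7 and NKD1.

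ALDH high 2 and ALDH low 2 stood with libraries of the other label on the first principal component. The comparison was therefore also made between the 4 remaining libraries. That choice was made with the values known and favours a separation of the labels in genes such as LEF1. Limma then called 0 of the 10 genes, where 0.669% of all genes were called. LEF1, TCF7 and NKD1 had an unadjusted p under 0.05, a threshold that 15.3% of all genes passed in these 4 libraries.

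**Figure D4:**
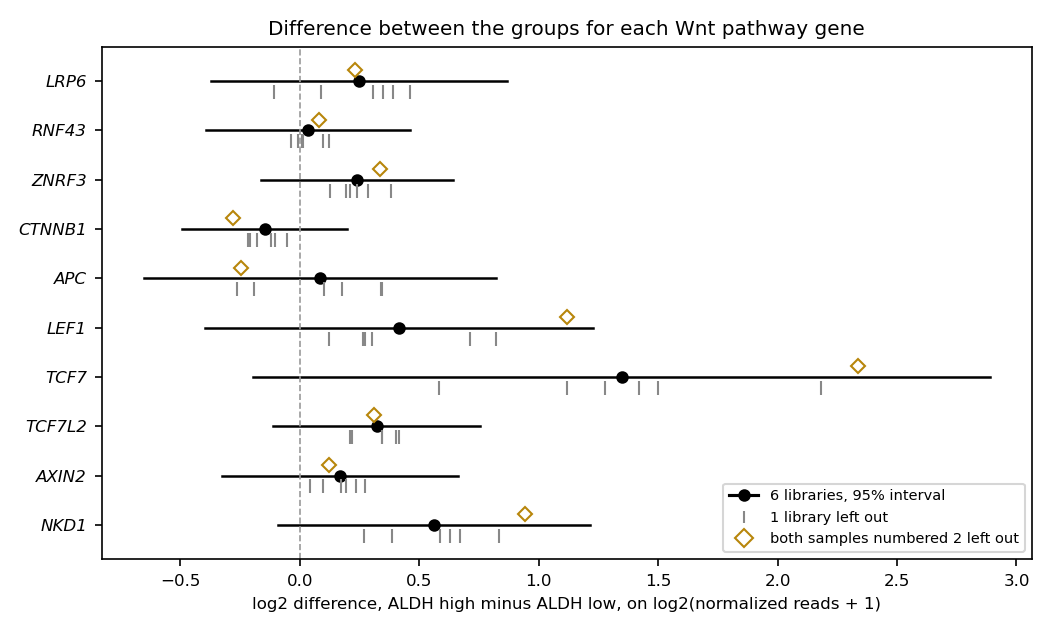
Log2 difference between ALDH high and ALDH low for each of the 10 genes: black points with 95% intervals are from all 6 libraries, grey ticks leave out 1 library each, and open diamonds leave out both samples numbered 2. All intervals cross 0, CTNNB1 is the only gene left of 0 with all libraries, and the diamonds of LEF1 and TCF7 lie farthest from their points, at 1.12 and 2.33.

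The wider pathway was described with 8 lists of 137 genes, of which 97 were in the table. Limma called 0 of the 97, as did edgeR and DESeq2, and with each tool 0 had an unadjusted p under 0.05. Differences lay above 0 in 69 and below 0 in 28, with a median of 0.08. Of all genes 52.3% lay above 0, with a median of 0.02. Non-overlapping groups were found for 3 genes higher in ALDH high (WNT2B, PTK7 and CCND1, of which PTK7 is named only for this) and for 3 lower ones (WNT4, WNT10B and FZD9, with WNT4 likewise), which is 3 of 97 each against the 3.67% and 3.32% of all genes.

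Of the ligands, 8 of 19 were in the table, 5 above 0 and 3 below, with a median of 0.13. WNT10B, a canonical ligand, was the most abundant per kilobase and had 807, 759 and 812 normalized reads in libraries 1, 2 and 3 of ALDH high and 896, 813 and 890.1 in those of ALDH low, a narrow separation with a log2 difference of −0.13 (95% interval −0.45 to 0.19). WNT2B was near the lower limit of the table, at 15.7, 16.4 and 16.0 against 13.9, 4.88 and 10.7, and differed by 0.76 (−0.33 to 1.85). PORCN, which attaches the lipid that Wnt proteins need for secretion, averaged 580 ± 70.7 among ALDH high libraries and 635 ± 40.7 among ALDH low ones (SD, n = 3 each). It was 1 of 3 genes of ligand secretion and agonists found, 2 of them above 0.

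Of the receptors and co-receptors, 18 of 21 were in the table, 11 above 0 and 7 below, with a median of 0.03. LRP5, the paralogue of LRP6, was the most abundant per kilobase and averaged 3251 ± 77.8 among ALDH high libraries and 2941 ± 364 among ALDH low ones (SD, n = 3 each). The Frizzled receptor gene FZD9 had 77.5, 75.7 and 89.2 normalized reads in libraries 1, 2 and 3 of ALDH high and 119, 93.7 and 149.96 in those of ALDH low, all higher than in ALDH high. Its log2 difference of −0.55 had a 95% interval of −1.13 to 0.03 (limma unadjusted p = 0.0595, adjusted p = 0.984). Of 15 secreted antagonists and their partners, 3 were in the table. Among them, KREMEN1, a receptor for the DKK inhibitors, averaged 1611 ± 87.7 and 1661 ± 226, with a log2 difference of −0.04 that turned to 0.0082 and 0.024 with scaling to the total reads and to the total without mitochondrial genes. APCDD1, a membrane inhibitor and target, had 201, 182 and 187 across ALDH high and 113, 195 and 139 across ALDH low, a difference of 0.39 (−0.15 to 0.93).

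All 24 genes of the destruction complex and its regulators were in the table, 17 above 0 and 7 below, with a median of 0.08. DVL1, a Dishevelled gene and the most abundant of the list per kilobase, averaged 6989 ± 554 among ALDH high libraries and 7764 ± 860 among ALDH low ones (SD, n = 3 each). TNKS, a tankyrase that promotes the breakdown of AXIN, had 1266, 1531 and 1305 normalized reads in libraries 1, 2 and 3 of ALDH high and 1118, 1329 and 898 in those of ALDH low, a log2 difference of 0.31 (95% interval −0.08 to 0.70) that was 0.16 with the length and GC trend removed.

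Of 22 nuclear factors, 21 were in the table, 17 above 0 and 4 below, with the highest median of the 8 lists, 0.21. Of all genes 52.3% lay above 0. Several genes of this list were highest in ALDH high 2 and lowest in ALDH low 3, as long transcripts were. The part of length in their values was not tested. HDAC1, a deacetylase that serves many repressors, averaged 9716 ± 718 among ALDH high libraries and 9043 ± 1378 among ALDH low ones (SD, n = 3 each). Of 26 targets and feedback genes, 20 were found, 17 above 0 and 3 below, with a median of 0.17; 7 of the 10 genes are on that list. CCND1, the cyclin D1 gene and the most abundant target, had 6954, 8075 and 6906 normalized reads in libraries 1, 2 and 3 of ALDH high and 6529, 6851 and 6852 in those of ALDH low. The groups did not overlap, but ALDH high 3 and ALDH low 3 were 54.2 normalized reads apart, and the log2 difference was 0.11 (95% interval −0.20 to 0.43).

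The planar polarity branch, which acts without beta-catenin, had 10 of 14 genes in the table, 8 above 0 and 2 below, with a median of 0.06. CELSR2, an atypical cadherin, had 1471, 2122 and 1524 normalized reads in libraries 1, 2 and 3 of ALDH high and 1423, 1484 and 850 in those of ALDH low, again with the extremes in ALDH high 2 and ALDH low 3. Its log2 difference was 0.47 (95% interval −0.05 to 0.98), and 0.27 with the length and GC trend removed. RHOA, a small GTPase of the cytoskeleton, ranged from 7527 in ALDH low 1 to 13898 in ALDH low 3 and differed by 0.04 between the groups, with the sign turned by edgeR (−0.0038), by DESeq2 (−0.0023) and without ALDH low 1 (−0.21).

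**Figure D5:**
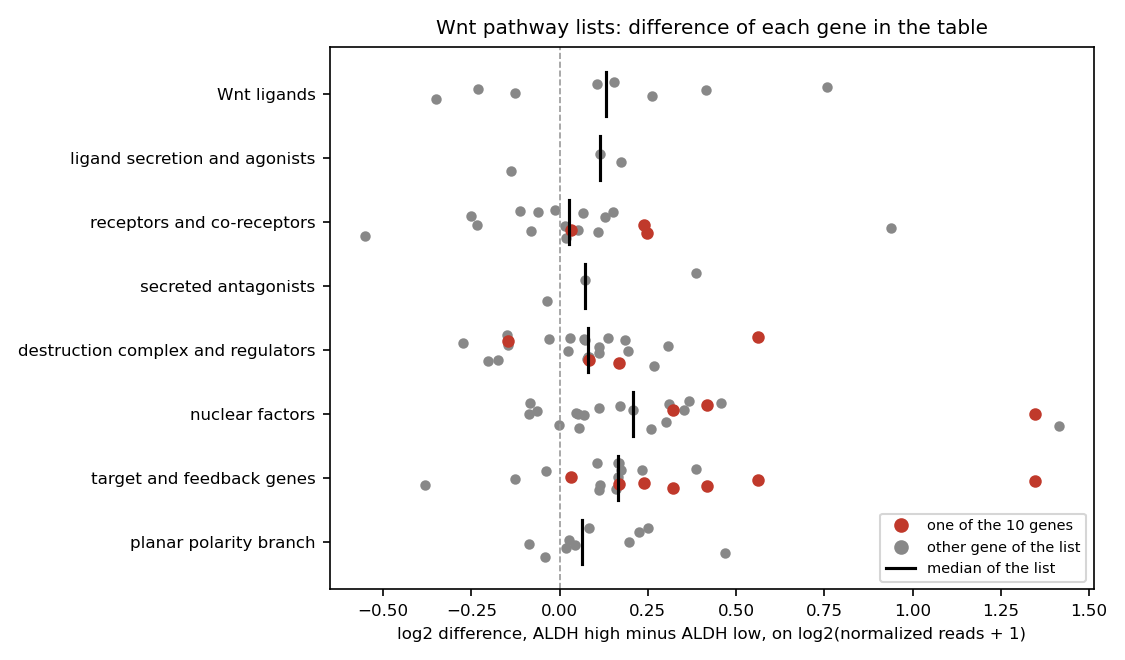
Log2 difference between ALDH high and ALDH low (horizontal axis) for each gene of the 8 pathway lists; red points are the 10 genes, grey points the others, and black bars the list medians, with points spread vertically only for visibility. The medians lie between 0.03 and 0.21, and TCF7 and TCF7L1 stand farthest to the right, at 1.35 and 1.41.

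Genes whose values ran most like those of 4 of the members were sought among genes averaging 100 or more normalized reads, by Pearson's r over the 6 libraries on the log2 scale. These are the closest of 11506 genes, so a high r is given as a description only. For LEF1 they were NAALAD2 (r = 0.9996), RGMA (0.998) and PAX1 (0.998). PAX1 had 141, 69.3 and 153 normalized reads in libraries 1, 2 and 3 of ALDH high and 47.6, 158 and 61.1 in those of ALDH low, with ALDH high 1, ALDH high 3 and ALDH low 2 high as in LEF1. For TCF7 they were CHAMP1 (0.998), MSH6 (0.996) and APCDD1 (0.995), the last of which is also on the pathway lists. For NKD1 they were VASH1 (0.994), SH3RF3 (0.986) and TEC (0.983). For AXIN2 they were AGRN (0.993), PGS1 (0.992) and RFX1 (0.991), and AGRN had 8259, 9515 and 7612 across ALDH high and 6381, 7837 and 8896 across ALDH low, in the order of libraries seen for AXIN2. No gene was shared between the 4 sets of closest genes.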

How the data were processed

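Reads were handled with Trimmomatic 0.36, STAR 2.5.2b, featureCounts of Subread 1.5.2 and DESeq2 on GRCh38, per the submitters' processing notes; per the labels' protocols, uniquely placed reads in exons were counted per gene, and strandedness is not settled, so antisense reads cannot be told apart. The authors deposited a normalized signal, in which each count is scaled by a size factor of its sample, with their log2 fold change and p-values. Of 16046 rows, 46 spike-ins were set aside. At least 99.99% of values per sample were whole multiples of 1 read within 0.02 of a read, which gave the read totals. Names lost to dates (21) or blank (45), coordinates and exon lengths came from GENCODE release 29, which matched 15939 of 16000 identifiers; GC content came from its transcripts.

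The main test was limma 3.58.1 in R 4.3.3, run over all genes on log2(normalized reads + 1) with the trend option, Benjamini-Hochberg adjusted, threshold 0.05, no filter. The pseudocount pulls changes of low genes towards 0, yet the main limma values were not the smallest. For TCF7 limma gave 1.35 where edgeR and DESeq2 gave 0.86, and TCF7L1 and WNT2B were also larger with limma. Alternatives included edgeR 4.0.16 and DESeq2 1.42.0 on recovered reads. The fitting code was tested on simulated data for genes averaging 100 or more normalized reads. There limma recovered 5.97% of genes changed 1.5-fold and 61.2% of those changed 2-fold, so changes of such size can go uncalled. It also made 13 false calls among the unchanged genes. Each simulated gene was drawn separately, without a library arrangement shared between genes, so these rates may differ in the real libraries. For ratios the test was a two-sided exact permutation of the labels.

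The genes, lists and alternatives were chosen with earlier results of these data known. Named beside the 10 genes are, per list, the most abundant gene per kilobase and that with the smallest unadjusted p, and the 3 genes most correlated with AXIN2, LEF1, TCF7 and NKD1.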

Additional observations from a re-analysis of the deposited data

Results flagged for a closer look

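ERCC spike-in sequences, which enter no comparison above, took 0.487% of all reads, more than a count of 0 would allow. With 3 samples a group, no search for outlying samples was made.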

How the results depend on the processing

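Of the 10 genes and of the 97 pathway genes 0 were called in any of the 16 alternatives, of which edgeR and DESeq2 were 1 each, run on all libraries, and the others used limma. Over all genes the count was 0 in each, except without both samples numbered 2, where it was 107, and stayed at 0 when any 1 library was left out. Of 159 values of the 10 genes under the alternatives, 152 kept their sign and 7 turned. APC turned to −0.25 without both samples numbered 2 and ranged from −0.26 to 0.34 with 1 library left out, LRP6 ranged from −0.11 to 0.46, and RNF43 from −0.037 to 0.12 (−0.0086 without ALDH high 2), with RNF43 at −0.086 when the length and GC trend was removed. Of the other named genes 6 of 222 values turned: KREMEN1 to 0.0082 with scaling to total reads and 0.024 without mitochondrial genes (−0.14 to 0.057 with 1 library left out), and RHOA to −0.0038 with edgeR and −0.0023 with DESeq2 (−0.21 to 0.23). TCF7 could not be tested with a minimum mean of 100. The replicate block gave 0 calls among the 10 genes, the pathway and all genes. Deviations of same-numbered samples from their group means correlated with r = −0.46, −0.43 and 0.14 for numbers 1, 2 and 3, so the numbers were not taken to pair the samples. Only ALDH low 3 correlated best with its own number in the other group. Depth limits TCF7 most, with 4 to 42 reads per library.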
